A study of Mus musculus with 23 samples.

Results

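The genotype by L-AC interaction is the difference between 2 changes, measured for each gene: the L-AC minus saline change in Ehhadh knockout liver less the same change in wild-type liver. All 23 libraries of the series entered it, and each library is taken as the liver of 1 mouse of the mixed strain B6/129. The groups were wild type (WT) on Saline (7 mice, 29 to 45 weeks old, median 38), Ehhadh_ko (KO) on Saline (5 mice, 31 to 44 weeks, median 38), WT on L-AC (6 mice, 28 to 44 weeks, median 38.5) and KO on L-AC (5 mice, 28 to 38 weeks, median 31). The labels give L-AC only as an abbreviation, with no dose and no duration, nor do they state what the Ehhadh allele lacks. The design text of the series sets out the same 4 groups, so the interaction asks whether liver lacking Ehhadh answered L-AC differently from normal liver.

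As background, Ehhadh encodes the peroxisomal L-bifunctional protein, which carries out the hydratase and dehydrogenase steps of beta-oxidation in peroxisomes and acts on long-chain dicarboxylic acids made by omega-oxidation. L-aminocarnitine inhibits carnitine palmitoyltransferase 2 and so blocks the entry of long-chain fatty acids into mitochondrial beta-oxidation. In liver, unburnt fatty acids activate PPARA, a nuclear receptor whose targets include the enzymes of mitochondrial, peroxisomal and microsomal fatty acid oxidation.

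Values below are CPM (a gene's reads per 1000000 counted reads, after scaling of the libraries), and changes are log2 fold changes from 1 fit over all 23 libraries. A positive interaction means that the estimated L-AC minus saline change was higher in KO than in WT. For a gene that L-AC lowered, a positive value is thus a smaller fall. Tests are edgeR's quasi-likelihood test with Benjamini-Hochberg adjustment over 14196 genes. A gene is said to be called, or to rise or fall, where the adjusted p was under 0.05. Intervals are 95% intervals of the log2 difference.

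No gene was called in the interaction, 0 of 14196 (0%) by edgeR, and the adjusted p was 1 for every gene named here. By DESeq2 and by limma-voom the count was also 0. At an unadjusted p under 0.05, edgeR placed 320 genes (2.25%), 185 with the higher change in KO and 135 with the lower. This share is below the 0.05 that the cutoff passes by chance where no gene differs. It stayed below 0.05 under every alternative, at most 4.12% (without KO L-AC mouse 5). A share set beside 2.25% further on is thus not set beside chance. L-AC changed 7572 genes in WT (53.3%; 26.6% rose and 26.7% fell) and 6924 in KO (48.8%; 25.2% rose and 23.6% fell), and its change averaged over both genotypes was called for 9257 genes (65.2%). The median size of the interaction over all genes tested was 0.12 on the log2 scale, against 0.38 for the averaged change. The interaction was positive for 7677 of the genes tested (54.1%), the share to set beside the counts of positive and negative list members below. A p that misses the threshold does not show that the genotypes responded alike, so the intervals below say how large a difference these 23 mice allow.

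The interval of the difference lay wholly within a 2-fold change either way (log2 within 1) for 10908 of 14196 genes (76.8%), and within a 1.5-fold change for 7108 (50.1%). Precision depended on the level of the gene. The median distance from estimate to interval end was 0.32 at a mean of 10 to 100 CPM, where 93.7% of 6516 genes lay within 2-fold, and 0.35 for the 1517 genes at 100 CPM or more, where 91.7% did. It was 0.56 at 1 to 10 CPM and 1.03 below 1 CPM, where only 17.1% of 2132 genes lay within 2-fold. For genes below 1 CPM, these libraries therefore mostly do not exclude a 2-fold difference of response between genotypes. The share within 2-fold was also lower, 43.5%, among the 2116 genes with a large L-AC response, which are defined below.

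Ehhadh itself rose with L-AC in both genotypes from very different levels. The 7 WT Saline libraries held 634.8 to 1635 CPM (median 884.1), and the 6 WT L-AC libraries held 10260 to 14650 CPM (median 13470). In KO the 5 Saline libraries held 131.6, 127.1, 252.9, 105.5 and 90.92 CPM, and the 5 L-AC libraries held 2144, 1476, 1421, 1631 and 1617 CPM. No saline library of either genotype reached the L-AC libraries of its own genotype, and no KO library reached the WT libraries of its treatment. The rise was 13.7-fold in WT and 11.7-fold in KO, with an interaction of -0.22 (SE 0.324, interval -0.89 to 0.45, unadjusted p = 0.497). The sign of this estimate rested on KO Saline mouse 3, the highest of its group, without which it was 0.09. Anxa13, an annexin that was higher in KO under both treatments, had an interaction of -0.03 (SE 0.402, interval -0.86 to 0.81).

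The 250 bases upstream of the annotated Ehhadh start are shown because this is the gene whose response could be compared between an intact and a targeted allele. They come from RefSeq on GRCm38.p6, chr16:21787835-21788084, minus strand, 5′ to 3′. Both strands were searched for AGGTCANAGGTCA, an exact form of the direct repeat with 1 base between that PPARA and its partner RXR can bind. The window holds no exact match, which is why no base is in capitals, and 11 of 32851 RefSeq windows of the same length hold one (0.0335%). With so rare an exact form, a window without it says little. Inexact forms and bases outside the window were not searched, so Ehhadh may still hold such a repeat.
Ehhadh: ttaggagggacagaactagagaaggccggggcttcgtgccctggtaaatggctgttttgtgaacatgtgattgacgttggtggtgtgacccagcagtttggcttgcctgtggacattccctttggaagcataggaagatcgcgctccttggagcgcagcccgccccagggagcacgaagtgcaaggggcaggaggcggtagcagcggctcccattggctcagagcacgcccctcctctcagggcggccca

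L-AC responsive genes were taken as those called in the averaged change with a log2 fold change over 1 in size, a choice that weights WT and KO alike. There were 2116 of them, 931 higher and 1185 lower under L-AC. The estimate had the same sign in WT and KO for 2114, which the choice by an averaged change nearly fixes, and for 12656 of all 14196 genes tested. Of the responsive genes, 1893 were called in each genotype separately, 113 in WT alone and 71 in KO alone. Those last 2 counts are of thresholds passed in each genotype and not of a tested difference, since the interaction called no gene. For 1141 of the 2116 genes (53.9%) the interval of the difference excluded a KO response smaller than the WT response by 50% or more of its log2 size.

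The KO estimate was the larger of the pair for 1267 of these 2116 genes (59.9%), against 7797 of all 14196 genes tested (54.9%). Among the responsive genes these were 608 of the 931 that rose (65.3%) and 659 of the 1185 that fell (55.6%). The median difference in the direction of the response was 0.07 (quartiles -0.15 and 0.30), beside a median averaged response of 1.41. At an unadjusted p under 0.05 there were 63 of the 2116 (2.98%, against 2.25% of all genes tested), 52 with the larger response in KO and 11 with the smaller. Both shares are below 0.05. These values moved with single libraries of more than 1 group. Without WT L-AC mouse 3, the KO estimate was larger for 49.2% of the responsive genes and the median difference was -0.01. The median difference was 0.01 without KO L-AC mouse 5, and 0.04 without WT Saline mouse 1 or WT L-AC mouse 2. It was higher, 0.11 to 0.14, without WT L-AC mouse 1 or 5 or KO L-AC mouse 2 or 4. Without KO L-AC mouse 2 the share with the larger estimate in KO was 66.1%. With age in weeks as a covariate the share was 53.8% and the median difference 0.03, and mice of the KO L-AC group were the youngest by median. These counts are a description, since the same libraries chose the genes and gave the interaction, and the genes are not independent of each other.

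**Figure D1:**
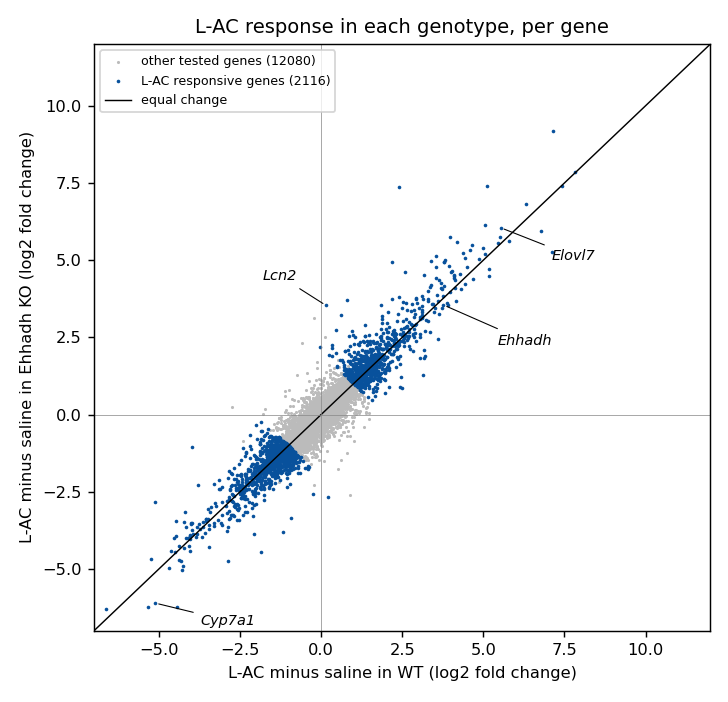
Each point is 1 of the 14196 genes tested, with the L-AC minus saline log2 fold change in WT on the x axis and in Ehhadh KO on the y axis; blue points are the 2116 L-AC responsive genes and the line marks equal change. Responsive genes lie along the line in both directions, with Ehhadh, Elovl7 and Cyp7a1 near it and Lcn2 above it.

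The genes that L-AC raised most were near silent under saline in both genotypes. Tg, which encodes thyroglobulin, held at most 0.109 CPM in any saline library, 4.525 to 12.88 CPM in WT L-AC and 3.967 to 26.55 CPM in KO L-AC, with an interaction of -0.03 (interval -2.02 to 1.95). Scn4b, a sodium channel beta subunit, held at most 0.2363 CPM under saline, 5.614 to 11.13 CPM in WT L-AC and 4.193 to 8.803 CPM in KO L-AC. Its interaction was -0.19 (interval -1.27 to 0.88), and the L-AC groups overlapped over most of their range. Elovl7, a fatty acid elongase, rose by 5.54 in WT and 6.05 in KO, with an interaction of 0.51 (interval -0.83 to 1.85) that was -0.06 without KO L-AC mouse 3. Cxcr1, a chemokine receptor, rose by 5.50 and 5.74 (interaction 0.24, interval -1.16 to 1.64), and Bmper, a secreted regulator of BMP signalling, by 5.05 and 6.15 (interaction 1.10, interval -0.41 to 2.61). Myo16, an unconventional myosin, ranged from 0.1212 to 11.54 CPM among the WT L-AC libraries and from 0.1787 to 18.8 CPM among the KO L-AC libraries. Its saline libraries held at most 0.08387 CPM. Its rise was 7.83 in WT (SE 1.427) and 7.85 in KO (SE 1.667), with an interaction of 0.02. With a library left out, the interaction of Myo16 ran from -1.84 to 1.06. No interval is given for it, because the SE used here divides by the square root of F. Such an SE is unreliable where the estimate and F are both near 0.

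The genes that L-AC lowered most include genes of glycogen, bile acid and steroid metabolism, and those named here fell in both genotypes. Ppp1r3c, which targets protein phosphatase 1 to glycogen, fell by 5.24 in WT and by 4.69 in KO (interaction 0.55, interval -0.75 to 1.86; 0.28 without KO L-AC mouse 4 and 1.03 without WT L-AC mouse 3). Cyp7a1, the enzyme that controls the classic route of bile acid synthesis, held 11.8 to 102.2 CPM in WT Saline and 29.53 to 79.68 CPM in KO Saline. Under L-AC its levels were 0.2767 to 5.576 CPM in WT and 0.307 to 1.394 CPM in KO. Its interaction of -0.99 (SE 0.832, interval -2.71 to 0.73) shrank to -0.10 without WT L-AC mouse 3, which held 5.576 CPM where the next WT L-AC library held 1.541. Hsd3b2, a steroid dehydrogenase, had an interaction of -0.29 and Keg1, a glycine acyltransferase-like gene, one of 0.21.

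Of the 28 lists, those of fatty acid oxidation in its organelles had the smallest median SE of the interaction: 0.134 for peroxisome biogenesis, 0.145 for mitochondrial fatty acid oxidation and 0.211 for peroxisomal beta-oxidation. Of 28 peroxisomal beta-oxidation genes, 17 rose and 4 fell in WT and 18 rose and 5 fell in KO, against 26.6% and 26.7% of all genes tested in WT and 25.2% and 23.6% in KO, with median changes of 0.57 in each genotype. The median interaction was -0.02 beside 0.02 over all genes tested, and 24 of 28 intervals lay within 2-fold. All 16 peroxisome biogenesis genes and all 19 mitochondrial fatty acid oxidation genes tested had intervals within 2-fold, with median interactions of 0.02 and 0.03. Nudt7, a peroxisomal enzyme that cleaves coenzyme A, had the smallest p of the peroxisomal list (interaction 0.81, interval -0.23 to 1.86, unadjusted p = 0.122), followed by Acox2, an oxidase of branched-chain substrates and bile acid precursors (interaction -0.28, interval -0.82 to 0.26). Acadl, the long-chain acyl-CoA dehydrogenase, rose by 0.87 in WT and 0.88 in KO, and its interaction was 0.01 (SE 0.113, interval -0.22 to 0.25). Cpt2, the carnitine palmitoyltransferase of the inner mitochondrial membrane, rose from 253.4 to 307.4 CPM in WT Saline to 407.2 to 535.8 CPM in WT L-AC, and from 248.1 to 311.6 to 443.9 to 552.8 CPM in KO. Its interaction was 0.13 (interval -0.12 to 0.38). Among 22 PPARA targets the median change was 2.29 in WT and 2.19 in KO, 20 rose in WT and 19 in KO, and the interaction was positive for 16 with a median of 0.16, which was 0.04 without WT Saline mouse 7. Pdk4, a kinase that shuts off pyruvate dehydrogenase, rose by 5.46 and 5.57 (interaction 0.11, interval -0.89 to 1.11). Pex11a, which drives division of peroxisomes, rose by 2.08 and 2.04 (interaction -0.04, interval -0.71 to 0.63), Acot5, a peroxisomal acyl-CoA thioesterase, by 3.10 and 3.22 (interaction 0.13), and Acsl1, a long-chain acyl-CoA synthetase, by 0.89 and 0.62 (interaction -0.27, interval -0.63 to 0.08). Creb3l3, a liver transcription factor induced by fasting, held 403.7 to 536.5 CPM over all saline libraries, 596.6 to 751.8 CPM in WT L-AC and 716.3 to 958.5 CPM in KO L-AC, with an interaction of 0.25 (interval -0.01 to 0.51).

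**Figure D2:**
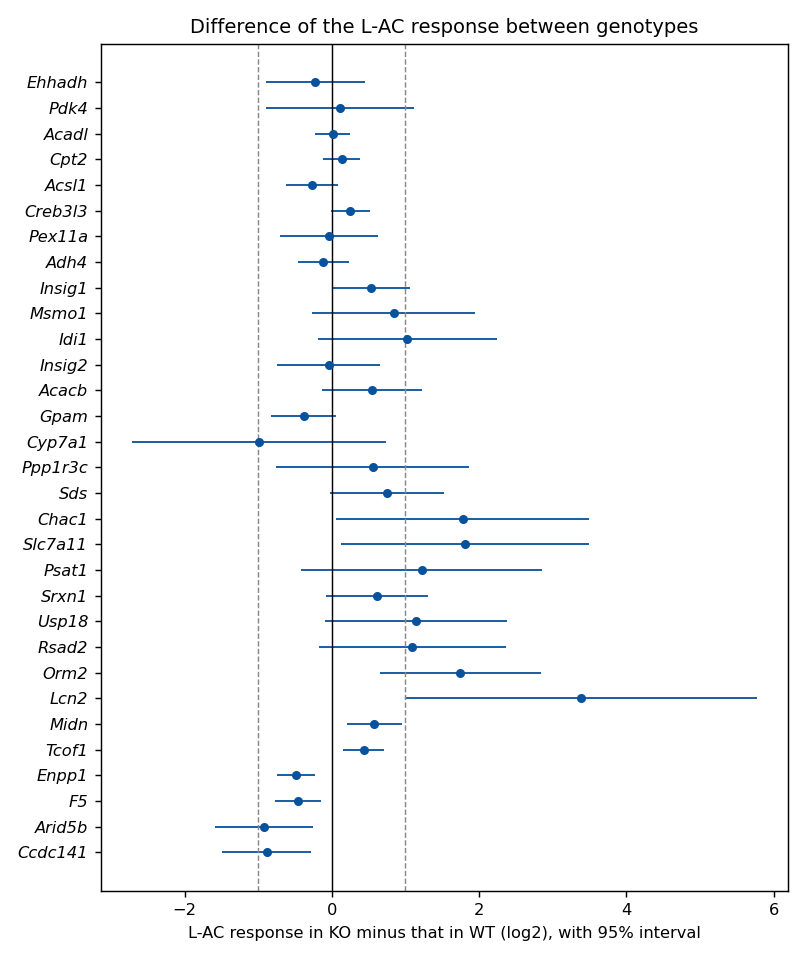
Points are the interaction of 31 named genes (log2, KO response minus WT response) and bars their 95% intervals from edgeR; the solid line marks 0 and the dashed lines a 2-fold difference. Acadl and Cpt2 have narrow intervals around 0, while Slc7a11, Chac1 and Lcn2 have intervals over 3 log2 units wide.

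Microsomal omega-oxidation, the step that makes dicarboxylic acids before they reach peroxisomes, had a median interaction of 0.01 over 14 genes (7 positive, 7 negative). Cyp4f16, a member of this P450 family, had the smallest p among them (interaction 0.55, interval -0.15 to 1.24, unadjusted p = 0.118). Adh4, an alcohol dehydrogenase, fell by 1.97 in WT and by 2.09 in KO (interaction -0.12, interval -0.47 to 0.23). The 7 genes of ketone body synthesis and export all had intervals within 2-fold, and the transporter Slc16a7 among them had an interaction of -0.38 (interval -0.86 to 0.10).

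Most genes of cholesterol synthesis fell with L-AC in both genotypes. Of 21 tested, 16 fell in WT and 16 in KO, against 26.7% and 23.6% of all genes, with median changes of -1.57 and -1.34. The median KO minus WT difference was 0.39 under saline, where the list levels overlapped (-0.48 to 0.97 in WT, -0.33 to 0.94 in KO). Under L-AC it was 0.47, and the list levels did not overlap (-1.308 to -1.116 in WT, -0.905 to -0.532 in KO). No member was called between genotypes under either treatment. For the L-AC response, the median interaction was 0.05 (11 positive, 10 negative; 9 of 21 intervals within 2-fold). Idi1, the isopentenyl diphosphate isomerase, held 12.7 to 88.7 CPM in WT Saline and 20.44 to 61.97 CPM in KO Saline. Under L-AC it held 2.367 to 4.902 CPM in WT and 5.935, 7.215, 13.57, 14.48 and 7.686 CPM in KO. The saline groups overlapped and the L-AC groups did not, but the interaction of 1.02 (SE 0.587, interval -0.19 to 2.24, unadjusted p = 0.0945) was 0.50 without WT Saline mouse 1, the highest WT Saline library. Msmo1, a sterol demethylase, showed the same layout, with 12.43 to 14.33 CPM in WT L-AC and 19.31 to 36.8 CPM in KO L-AC (interaction 0.84, interval -0.27 to 1.94; 0.47 without WT Saline mouse 1). Neither gene was called between genotypes under L-AC (edgeR adjusted p = 0.711 for Idi1 and 0.948 for Msmo1).

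Among the 10 genes of SREBP2 control and sterol uptake, the median change was -1.08 in WT and -0.81 in KO. Insig1, which retains the SREBP complex in the endoplasmic reticulum and is itself an SREBP target, fell by 2.61 in WT and by 2.08 in KO. Its interaction of 0.53 had an interval from 0.001 to 1.06 and an unadjusted p of 0.0497. Insig2, a related retention protein, which L-AC raised by 2.72 and 2.67, had an interaction of -0.05 (interval -0.75 to 0.66). Bile acid synthesis genes had a negative interaction for 8 of 10, with a median of -0.20. Baat, which joins bile acids to taurine or glycine, fell by 0.43 in WT and by 0.73 in KO (interaction -0.30, interval -0.59 to -0.01, unadjusted p = 0.0451), and Cyp39a1, an oxysterol hydroxylase, had an interaction of -1.02 (interval -2.20 to 0.15).

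**Figure D3:**
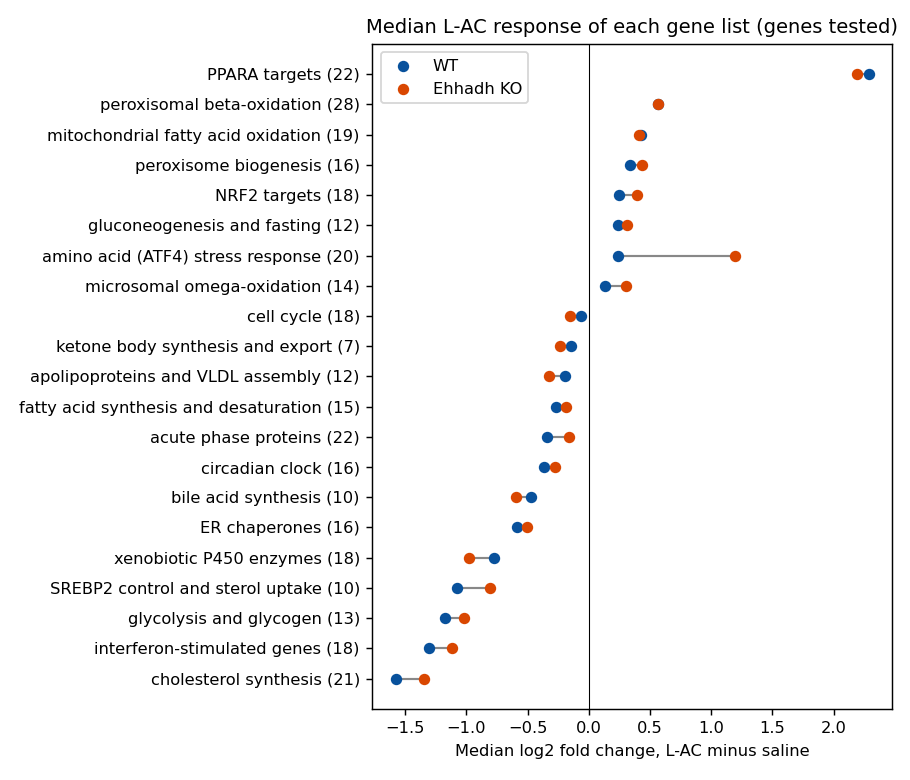
For each of 21 pathway lists, with the number of genes tested in brackets, the blue point is the median L-AC minus saline log2 fold change in WT and the orange point that in KO. The points nearly coincide for peroxisomal and mitochondrial fatty acid oxidation and lie farthest apart for the amino acid (ATF4) stress response, at 0.24 and 1.19.

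In fuel metabolism the list medians were 0.10 for 15 fatty acid synthesis genes (-0.08 without KO L-AC mouse 5), 0.07 for 12 genes of gluconeogenesis and fasting (-0.11 without WT Saline mouse 1), and 0.11 for 13 of glycolysis and glycogen (-0.07 without KO L-AC mouse 2). Acacb, the acetyl-CoA carboxylase that makes malonyl-CoA at mitochondria, rose by 2.85 in WT and 3.39 in KO (interaction 0.54, interval -0.14 to 1.23). Gpam, the first acyltransferase of triglyceride synthesis, rose by 1.16 and 0.78 (interaction -0.38, interval -0.82 to 0.06). Sds, serine dehydratase, fell by 0.94 in WT and was not called in KO, where the estimate was -0.19; the difference was 0.75 (interval -0.03 to 1.52, unadjusted p = 0.0574).

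The amino acid stress response had the highest list median. This program is run by the transcription factor ATF4 when amino acids are short or the integrated stress response is active. The interaction was positive for 18 of 20 genes tested, against 54.1% of all genes, with a median of 0.64 beside 0.02 over all genes. None of the 20 was called, and 2 were under an unadjusted p of 0.05, against 2.25% of all genes. In WT, 7 members rose and 3 fell (median change 0.24), and in KO 10 rose and 2 fell (median change 1.19), against 26.6% and 26.7% of all genes in WT and 25.2% and 23.6% in KO. The mean log2 level of the list, set to 0 at the WT Saline mean, was 0.23 to 0.97 in the 6 WT L-AC libraries. It was 0.39, 1.42, 1.79, 0.66 and 0.47 in KO L-AC mice 1 to 5. KO L-AC mice 2 and 3 thus stood above all WT L-AC mice while the other 3 lay within their range, and WT Saline mouse 1 stood at 0.74, above the other saline libraries. With 1 library left out, the list median ran from 0.22 without KO L-AC mouse 3 to 0.78 without KO L-AC mouse 4. Without WT Saline mouse 1 it was 0.37. It was also smaller with DESeq2 (0.37), with limma-voom (0.32), with no filter on low counts (0.37) and with the filter of 1 CPM (0.37).

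Slc7a11, the cystine-glutamate exchanger, held 0.6481, 0.6422, 7.733, 0.6077 and 0.6791 CPM in the KO L-AC libraries and 0.3321 to 0.7273 CPM in WT L-AC. A single library, KO L-AC mouse 3, set its interaction of 1.81 (interval 0.12 to 3.49, unadjusted p = 0.0367), which was 0.14 without it and 0.79 with limma-voom. Chac1, a glutathione-degrading enzyme, held 3.308, 12.32, 17.36, 2.967 and 3.612 CPM in KO L-AC and 0.6494 to 7.067 CPM in WT L-AC. Its interaction was 1.78 (interval 0.06 to 3.49, unadjusted p = 0.0431), and 1.18 without WT Saline mouse 1. Psat1, of serine synthesis, rose by 1.87 in WT and 3.10 in KO (interaction 1.22, interval -0.41 to 2.86; 0.37 without WT Saline mouse 1). Asns, asparagine synthetase, was chosen after its values were seen: its change was 0.11 in WT and 2.51 in KO, and the interval of the difference ran from -0.28 to 5.08.

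The RefSeq windows of this list were searched on both strands for TGATGNAAT, 1 exact form of the composite element that ATF4 and C/EBP factors can bind. Other forms of the element were not searched, so a window without a match may still hold one. Of its 22 members, 20 had a window. Of their 24 windows, 1 held a match, that of Nupr1. The letters were in 268 of all 32851 windows (0.816%) and in 63 of 13327 windows of tested genes (0.473%). Nupr1, a small stress-induced chromatin protein, had an interaction of 1.10 (interval -0.59 to 2.79). Its 250 bases upstream of the start are chr7:126625471-126625720 on GRCm38.p6, minus strand, 5′ to 3′, shown because it is the member that carries the letters, with the match on the opposite strand in capitals.
Nupr1: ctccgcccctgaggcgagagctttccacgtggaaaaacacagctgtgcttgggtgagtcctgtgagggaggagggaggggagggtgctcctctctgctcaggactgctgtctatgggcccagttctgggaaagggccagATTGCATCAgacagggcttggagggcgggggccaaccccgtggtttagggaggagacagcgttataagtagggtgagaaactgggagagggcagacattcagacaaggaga

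Other stress lists lay nearer to all genes. ER chaperones had a median interaction of 0.09 over 16 genes (-0.02 without KO L-AC mouse 2 and 0.33 without WT L-AC mouse 5). Xbp1, a transcription factor of the unfolded protein response, had an interaction of 0.46 (interval -0.09 to 1.01), which was 0.27 without WT Saline mouse 1. NRF2 targets, which defend against oxidants, had a median of 0.14 over 18 genes, 13 of them positive, and of -0.02 without KO L-AC mouse 3 or with age as a covariate. Srxn1, the sulfiredoxin of this list, held 130.7 to 271 CPM in WT L-AC and 205.8, 201.5, 600.8, 202.7 and 295 CPM in KO L-AC. It rose in both genotypes, by 2.07 and 2.68, and its interaction of 0.61 (interval -0.08 to 1.30) was 0.20 without KO L-AC mouse 3. Pgd and G6pdx, 2 enzymes of the pentose phosphate pathway, had interactions of 0.41 (interval -0.01 to 0.83; 0.27 without KO L-AC mouse 3) and -0.60 (interval -1.21 to 0.01).

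Acute phase proteins, which hepatocytes secrete in inflammation, had a median interaction of 0.28 over 22 genes, with none called. The interaction was positive for 18, against 54.1% of all genes, and 3 were under an unadjusted p of 0.05, against 2.25%. In WT 1 member rose and 7 fell, against 26.6% and 26.7% of all genes. In KO 4 rose and 5 fell, which is near or below the shares of all genes (25.2% and 23.6%). The list level in the KO L-AC libraries was 0.16, 1.01, -1.04, -0.73 and -0.93, so KO L-AC mouse 2 stood about 2 log2 units above mouse 3, and the WT L-AC libraries ran from -0.97 to -0.02. The median interaction was -0.04 without KO L-AC mouse 2, 0.44 without KO L-AC mouse 3 and 0.16 with limma-voom. Orm2, an orosomucoid, had the highest position of the list by p (interaction 1.75, SE 0.53, interval 0.65 to 2.84, unadjusted p = 0.0032). It held 10.16 to 36.16 CPM in WT Saline, 26.56, 13, 7.633, 7.001 and 10.09 CPM in KO Saline, 24.93 to 54.88 CPM in WT L-AC, and 82.81, 95.8, 66.9, 30.64 and 139.3 CPM in KO L-AC. Of the KO L-AC libraries, 4 lay above every WT L-AC library and the other lay within their range. Leaving out any library kept the Orm2 interaction between 1.48 and 2.19. Orm1 and Orm3 are close copies of Orm2, between which reads can be split, and their interactions were 0.92 (interval 0.22 to 1.61) and 0.90 (interval -0.63 to 2.42). Lcn2, the iron-scavenging lipocalin, held 65.59, 586.1, 9.459, 49.76 and 7.625 CPM in KO L-AC and 20.69 to 38.02 CPM in WT L-AC. Its interaction of 3.38 (interval 0.99 to 5.78, unadjusted p = 0.0076) was 1.27 without KO L-AC mouse 2 and 1.72 with limma-voom.

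Interferon-stimulated genes, an antiviral program, all fell in WT, 18 of 18, while 11 of 18 fell in KO, against 26.7% and 23.6% of all genes. The interaction was positive for 16, against 54.1% of all genes, with a median of 0.43. None of the 18 was called or under an unadjusted p of 0.05, so the difference between the counts that fell did not pass its test for any member. The list level was -1.85, -1.51, -0.57, -1.71, -1.98 and -1.36 in WT L-AC mice 1 to 6 and -1.41, -1.32, -0.60, -1.42 and -1.03 in KO L-AC mice 1 to 5, and these ranges overlapped. The median was 0.08 without KO L-AC mouse 3 and 0.78 without WT L-AC mouse 3, the highest library of each group. It lay between 0.24 and 0.29 without WT Saline mouse 1, KO Saline mouse 1 or WT L-AC mouse 1. Usp18, a brake on interferon signalling, held 1.376 to 5.091 CPM in WT L-AC and 2.422, 2.229, 8.907, 2.145 and 11.88 CPM in KO L-AC (interaction 1.14, interval -0.10 to 2.39; 0.65 without KO L-AC mouse 5). Rsad2, the antiviral enzyme viperin, had an interaction of 1.09 (interval -0.18 to 2.36; 0.42 without KO L-AC mouse 3), and Cxcl10, a chemokine, fell by 2.68 and by 2.10 (interaction 0.59, interval -0.66 to 1.83; 0.15 without KO L-AC mouse 2).

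**Figure D4:**
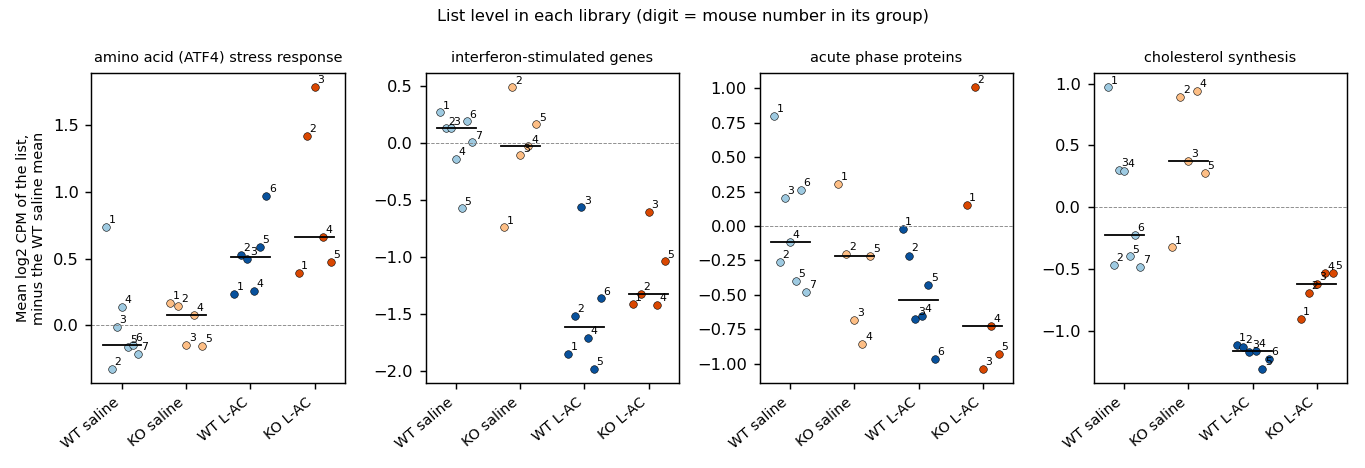
The y axis is the mean log2 CPM of the tested members of a list, less the WT Saline mean, for 4 lists; each point is 1 library, numbered by mouse within its group, and lines are group medians. KO L-AC mice 2 and 3 stand highest for the amino acid stress list, KO L-AC mouse 2 for acute phase proteins, and WT L-AC mouse 3 and KO L-AC mouse 3 for interferon-stimulated genes within their groups. For cholesterol synthesis the WT and KO libraries overlap under saline and do not overlap under L-AC.

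The remaining pathway lists held no called member either. The median interaction was -0.02 for 18 cell cycle genes, -0.08 for 16 circadian clock genes and -0.08 for 12 apolipoprotein and VLDL assembly genes. It was -0.19 for 18 xenobiotic P450 enzymes, 13 of them negative, and ran from -0.38 without WT Saline mouse 4 to 0.004 without KO Saline mouse 2. Cyp1a2, a pericentral P450, fell by 0.49 in WT and by 0.96 in KO (interaction -0.47, interval -0.95 to 0.01). Cyp26a1, which degrades retinoic acid, fell by 4.54 and by 3.98 (interaction 0.56, interval -0.75 to 1.87; 0.03 without KO L-AC mouse 4). Ciart, a clock repressor, had an interaction of 1.62 that was 0.14 without WT Saline mouse 4, which held 24.31 CPM against 0.9168 to 3.5 CPM in the other WT Saline libraries, and 0.17 with limma-voom.

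The genes with the smallest interaction p, none of them called, mostly had differences of under 1 on the log2 scale. With the higher change in KO were Midn, a nuclear protein of protein turnover (interaction 0.57, interval 0.20 to 0.95), Tcof1, which serves ribosomal RNA synthesis (0.43, interval 0.15 to 0.71), Stx3, a membrane fusion syntaxin (0.70, interval 0.24 to 1.16), and Polr2h, a subunit shared by the RNA polymerases (0.41, interval 0.12 to 0.70). Midn held 30.61 to 49.62 CPM in WT L-AC and 48.77 to 64.4 CPM in KO L-AC, and only the lowest KO library lay within the WT range. Stx3 was highest in KO L-AC mice 2 and 3, at 12.13 and 18.26 CPM, with the other 3 at 7.64 to 9.168 CPM against 6.641 to 8.414 CPM in WT L-AC; without mouse 3 its interaction was 0.45. Hist2h3c1 and Hist2h3c2, histone H3 copies with identical counts in every library, each had 1.14 (interval 0.43 to 1.86), and they stand as 1 measurement. Ubl4, Cdkl2 and Oraov1 had interactions of 0.28, 0.39 and 0.43.

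With the lower change in KO stood first Enpp1, an ectoenzyme that makes pyrophosphate from ATP, which had the smallest p of all genes named (interaction -0.49, SE 0.127, interval -0.75 to -0.22, unadjusted p = 0.00088). It held 19.93 to 25.06 CPM in WT Saline, 25.27, 21.26, 23.21, 24.73 and 22.54 CPM in KO Saline, 22.88 to 29.34 CPM in WT L-AC and 18.25, 18.4, 16.26, 23.88 and 17.9 CPM in KO L-AC. Of the KO L-AC libraries, 4 lay below every other library of the series and mouse 4 lay among the others. Its lowest adjusted p over the alternatives was 0.542. F5, coagulation factor V, fell by 0.49 in WT and by 0.95 in KO (interaction -0.46, interval -0.77 to -0.15), and Arid5b, a chromatin protein of lipid storage, by 0.80 and by 1.72 (interaction -0.92, interval -1.58 to -0.25). Arid5b ranged from 19.17 to 57.74 CPM over the saline libraries, from 13.07 to 22.4 CPM in WT L-AC and from 10.05 to 15.91 CPM in KO L-AC, so the L-AC groups overlapped. Cadm1, an adhesion molecule, rose less in KO, by 0.48 against 0.87 in WT (interaction -0.39, interval -0.67 to -0.11). Atp7b, the copper exporter, Pds5b, a cohesin cofactor, and Hdac8, a histone deacetylase, had interactions of -0.49, -0.37 and -0.40, and Ccdc141 and Nav1 of -0.89 and -0.73. Rpph1, the RNA of ribonuclease P, had -2.30 (interval -3.66 to -0.94) at a mean of 1.224 CPM, and -1.70 without KO Saline mouse 5.

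**Figure D5:**
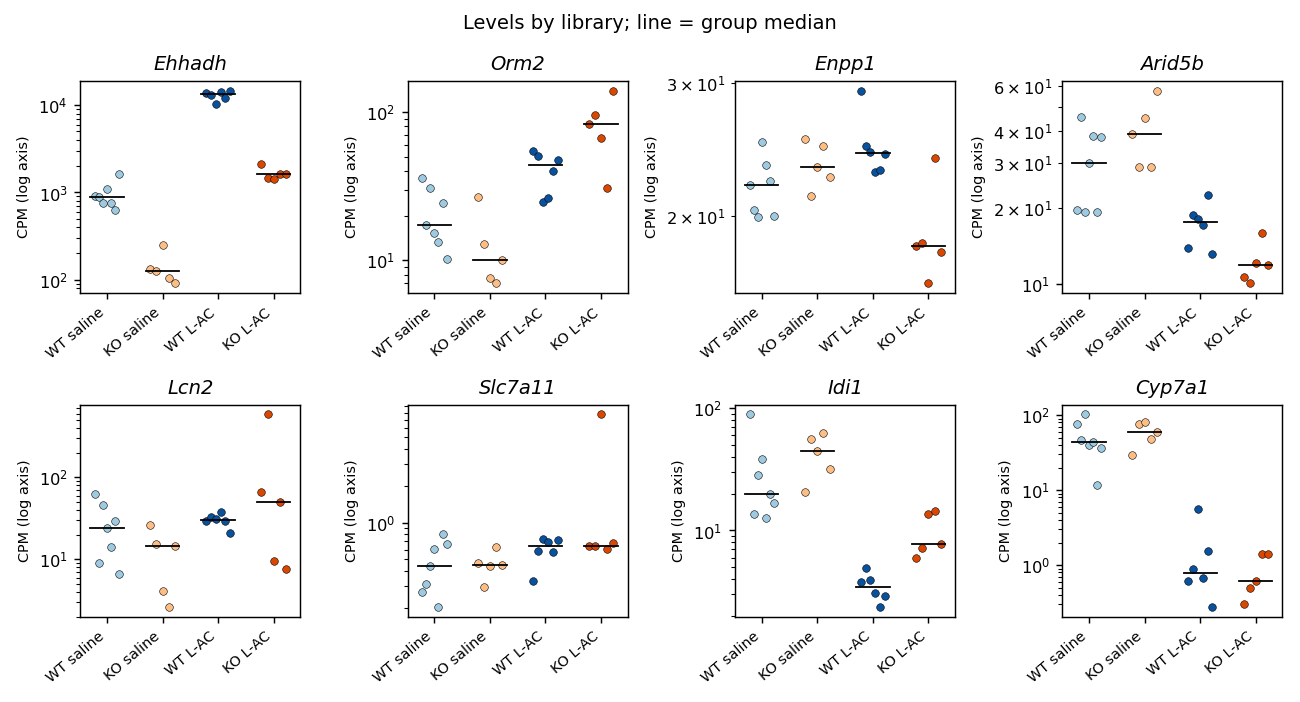
Each point is the CPM of 1 library on a log axis, by group, with lines at the group medians, for 8 genes. Ehhadh rises in both genotypes, Enpp1 is lowest in 4 of 5 KO L-AC libraries, Idi1 separates the genotypes under L-AC, and single libraries stand apart for Lcn2, Slc7a11 and Cyp7a1.

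The labelled tissue was checked by its markers. Ahsg, a secreted protein of hepatocytes, held 1338 to 8380 CPM in all 23 libraries. It fell with L-AC in each genotype (interaction -0.25, interval -0.76 to 0.26). Hepatocyte markers as a list had a median interaction of -0.18 (2 of 9 positive, all 9 intervals within 2-fold), with a list level of -0.51 to -0.20 in the WT libraries on L-AC and -0.76 to -0.29 in the KO libraries on L-AC. In bulk tissue, fewer cells of a type and less RNA per cell cannot be told apart.

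Markers of other cells held no called member, and their part in the results above was not tested. The median interaction was 0.04 over 10 Kupffer cell and macrophage markers, -0.11 over 10 stellate cell markers (0.02 without KO Saline mouse 4), -0.07 over 8 endothelial markers, -0.36 over 5 cholangiocyte markers (-0.11 without WT L-AC mouse 5), -0.02 over 8 lymphocyte and neutrophil markers, and -0.42 over the 2 tested markers of muscle, fat and pancreas (0.52 without KO Saline mouse 5). List levels in WT L-AC and KO L-AC ran from -0.69 to 0.31 and from -0.92 to 0.77 for Kupffer cells and from -0.69 to -0.41 and from -0.93 to 0.45 for lymphocytes and neutrophils. For endothelial markers the interaction was negative for 7 of 8, 7 of 8 intervals lay within 2-fold, and the list levels of the L-AC groups overlapped (-0.10 to 0.32 in WT, -0.05 to 0.25 in KO), with a median KO minus WT difference of 0.003 under L-AC. Stab2, a scavenger receptor of sinusoidal endothelium, held 44.93 to 55.48 CPM in WT L-AC and 37.56 to 44.2 CPM in KO L-AC without overlap, and had an interaction of -0.41 (interval -0.72 to -0.10, unadjusted p = 0.0116). Kdr, the VEGF receptor of the same cells, had -0.34 (interval -0.76 to 0.09). Krt19, a bile duct keratin, had -1.25 (interval -3.06 to 0.55) and 0.13 without WT L-AC mouse 5, which held 5.999 CPM against at most 0.9217 CPM in the other WT L-AC libraries.

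The median SD of log2 CPM over genes was 0.233 in WT and 0.192 in KO on Saline, and 0.231 in WT and 0.277 in KO on L-AC. WT Saline mouse 1, KO L-AC mouse 5 and KO L-AC mouse 2 lay farthest from their group means, at a root mean square distance of 0.496, 0.453 and 0.411. Counted reads per library were 24521896 to 48095959 over all 23 libraries and 26325848 to 31206300 in KO L-AC, the group that was also youngest by median. The interaction called 0 genes with each of the 23 libraries left out in turn, and without KO L-AC mouse 5 there were 590 genes at an unadjusted p under 0.05 (4.12%).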

How the data were processed

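Raw counts of reads per gene were deposited for each of 23 liver libraries (polyA RNA, 100 nt single-end reads per the labels' protocols). The authors made these counts with featureCounts 1.4.4 on UCSC mm10 gene models, over exons, from primary alignments, without strand and counting a read for each gene it overlapped, per the file headers. Alignment was with STAR 2.4.0 to mm10 (GRCm38), per the submitters' processing notes. Overlapping, antisense and near-identical genes can therefore share reads.

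Groups came from the labels. Each library carries a number of its own and was taken as 1 mouse. Where the labels do not state separate animals, p-values measure the spread between these samples, which may be technical. Replicates were numbered in accession order, and no batch or date is given. No pair of replicates agreed within sampling noise (56 pairs, lowest chi-square per degree of freedom 44.05).

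Genes were kept by filterByExpr (minimum count 10, total 15), 14196 of 24062, holding at least 99.95% of the reads. After TMM scaling, a model with 1 mean for each group was fitted by edgeR 4.0.16 in R 4.3.3 (glmQLFit, glmQLFTest); all tests are two-sided. SE is the size of the log2 fold change over the square root of F, and intervals are 95% by the t quantile of the total degrees of freedom. List levels are mean log2 CPM with a prior count of 2. No list was tested.

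The comparison, its 28 gene lists (415 symbols; 412 matched by name, 1 by a synonym) and the promoter motifs were chosen with earlier results of these data known. Named genes are part of those taken by a rule: Ehhadh, Anxa13, the 10 smallest interaction p in each direction at a mean of at least 1 CPM, the 6 largest averaged rises and 6 falls, and from each list the 2 smallest p and the largest response. Other genes named (Asns, Nupr1, Orm1, Orm3) were chosen after their values were seen. Alternatives were size factors of DESeq2, DESeq2 1.42.0, limma-voom (limma 3.58.1), no filter, 1 CPM in 5 libraries, age as a covariate, other cutoffs and each library left out. Promoter windows (RefSeq, GRCm38.p6) were cut to the 250 bases before the start. Some genes taken by the rule are not reported here.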

Additional observations from a re-analysis of the deposited data

Results flagged for a closer look

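A library was flagged where, in a group of 5 to 7 mice, the gap between its CPM and that of the nearest library was large for the range of the group by Dixon's test at the 95% level. Of 288 combinations of a named gene and a group, 36 held such a library. Chance flags about 1 in 20 where values are normally spread. Here CPM was used without a log, the genes were not drawn at random, and the histone pair entered as separate genes. The count of 36 can therefore not be set against 1 in 20.

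WT Saline mouse 1 stood highest of its group for 5 genes and for the histone pair: Idi1 at 88.7 CPM (next 38.64), Psat1 at 4.018 CPM (next 0.9573), Xbp1 at 381.8 CPM (next 233.2), Rsad2 at 32.62 CPM (next 14.66), Ahsg at 8380 CPM (next 5634) and Hist2h3c1 and Hist2h3c2 at 5.301 CPM each (next 2.979). In WT Saline mouse 4, Ciart was at 24.31 CPM (next 3.5) and Cyp39a1 at 16.48 CPM (next 7.259). WT Saline mouse 7 was highest for Acot5 at 8.808 CPM (next 3.925) and Krt19 at 1.832 CPM (next 0.8993), and lowest for Cyp26a1 at 7.558 CPM (next 18.77).

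Among KO Saline mice, mouse 3 was highest for Ehhadh at 252.9 CPM (next 131.6) and for Acot5 at 5.66 CPM (next 3.242). Mouse 2 of that group was highest for Hk2, a hexokinase, at 1.048 CPM (next 0.4507), and mouse 4 for Insig1 at 245.9 CPM (next 182.4). KO Saline mouse 5 was highest for Hist2h3c1 and Hist2h3c2 at 2.919 CPM each (next 1.933) and lowest for Krt19 at 0.322 CPM (next 0.4654).

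Under L-AC, WT mouse 1 was highest for Enpp1 at 29.34 CPM (next 24.74), Rpph1 at 2.103 CPM (next 1.213) and Acsl1 at 5933 CPM (next 4642). WT L-AC mouse 3 was highest for Cyp7a1 at 5.576 CPM (next 1.541) and Hsd3b2 at 1.657 CPM (next 1.131). In WT L-AC mouse 4, F5 was lowest at 342.9 CPM (next 414.6), and in WT L-AC mouse 5 G6pdx was highest at 4.926 CPM (next 3.226) and Krt19 at 5.999 CPM (next 0.9217).

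In the KO L-AC group, mouse 3 was highest for Slc7a11 at 7.733 CPM (next 0.6791), Srxn1 at 600.8 CPM (next 295), Rsad2 at 27 CPM (next 10.9) and Creb3l3 at 958.5 CPM (next 759.2). Mouse 2 stood apart for Lcn2 at 586.1 CPM (next 65.59), and mouse 4 for Enpp1 at 23.88 CPM (next 18.4). KO L-AC mouse 5 was highest for Myo16 at 18.8 CPM (next 2.66), Tg at 26.55 CPM (next 6.006) and Insig2 at 3884 CPM (next 1882).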

How the results depend on the processing

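The interaction called 0 genes under each of the 6 other fits and with each of the 23 libraries left out, and none of the 72 genes tracked was called in any of these. The count at an unadjusted p under 0.05 was 320, 558 of 19861 genes with no filter on low counts, 421 of 19815 with DESeq2 (0 called), 310 with limma-voom (0 called), and between 261 (without KO Saline mouse 3) and 590 (without KO L-AC mouse 5) with a library left out. L-AC responsive genes were 4593 at a log2 fold change over 0.58 and 479 at one over 2, against 2116; the cutoff itself sets these counts. The interaction kept its sign under every alternative for 60 of the 72 genes. It turned for Myo16 with DESeq2 (-0.1144) and with age as a covariate (-2.01), and with limma-voom for Cxcr1 (-0.06315) and Acot5 (-0.07065); the cause was not tested. With a library left out, 12 genes turned sign, all with estimates whose interval holds 0. The ranges were -0.4059 to 0.09346 for Ehhadh, -0.2128 to 0.1814 for Anxa13, -1.841 to 1.059 for Myo16, -0.9389 to 0.4359 for Tg, -0.05698 to 0.7766 for Elovl7, -0.04411 to 0.5159 for Cxcr1, -0.1736 to 0.3995 for Pdk4, -0.2796 to 0.3553 for Acot5, -0.1926 to 0.1082 for Pex11a, -0.02696 to 0.04783 for Acadl, -0.3965 to 0.1523 for Insig2 and -1.556 to 0.1324 for Krt19. No paired analysis was possible because the labels give each sample a number of its own but no replicate numbers. Depth was not varied; intervals were widest for genes under 1 CPM.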
